A study of Mus musculus with 8 samples.

Results

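Genes for integrins and for molecules that mark tissue-resident T cells were followed in single CD8+ T cells taken from pancreatic tumours. The 9 genes were listed by name, with no use of measured values in the rule, out of 32285 genes in the matrices, and all 9 were found. They were the integrin α chains Itgae (CD103), Itga1 (CD49a), Itga4 (CD49d) and Itgal (CD11a), the β chains Itgb1, Itgb2 and Itgb7, and the surface molecules Cd69 and Cd44. The cells were OT-I T cells, whose receptor recognises ovalbumin, from OT-I:Rosa26-Cas9 mice (Rag2/OT-I mice crossed to a Rosa26-Cas9 knock-in that expresses the nuclease throughout). A lentiviral library of guides to metabolic genes had been delivered to them, and CD90.1, its reporter, served to select them. Rosa26-Cas9 recipients bore orthotopic tumours of KPC_OVA, a pancreatic ductal adenocarcinoma line made to express ovalbumin, and received aPD-1 (an antibody that blocks PD-1) or IgG from rat serum from the day of transfer. CD90.1+ cells were sorted from the primary tumour 7 days after transfer. Mice were of either sex on a C57BL/6J background. The study describes several mice per treatment, independent experiments and an integration across batches, but which mice and which batch each library held is not stated. By label, 3 libraries were aPD-1 and 1 was IgG, and both groups shared the guide library, the Cas9 allele and the tumour line. Any comparison of treatments thus rests on 1 control library.

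Integrins are pairs of 1 α and 1 β chain that bind matrix, endothelium or epithelium. CD103 pairs with β7 and binds E-cadherin, CD49a pairs with β1 and binds collagen, α4 pairs with β1 or β7 and guides cells through vessels, and αL pairs with β2 as LFA-1, the receptor for ICAM-1. CD69 holds T cells in tissue by removing the egress receptor S1PR1 from the surface, and it also rises soon after antigen. CD44 binds hyaluronan and is kept by antigen-experienced T cells. Cells that co-express CD103, CD49a and CD69 are regarded as tissue-resident, whereas S1PR1 and its regulator KLF2 mark circulating cells.

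After filtering, 23059 cells with exactly 1 guide remained of 56359 barcodes, from 2535 to 11495 per library. Median depth per cell ran from 6329 UMIs (IgG) over 12084 (aPD-1 replicate 3) to 16325 and 16829 (replicates 2 and 1), and the summed counts held 48182760 to 88543446 UMIs per library. Each level below is in CPM, the UMIs of a gene scaled to a fixed total over the summed cells, so that depth per cell is divided out, and levels are compared for 1 gene at a time. After every cell was thinned to 4000 UMIs, the T cell markers Cd3d, Cd3e, Cd3g, Cd8a, Cd8b1 and Trac had a UMI in at least 87.1% of cells of each library, and Cd2 in 57.0% to 62.5%. Cells with at least 10 UMIs of markers of other cell types numbered 536, 556, 796 and 259 by the full lists. They numbered 4, 8, 14 and 13 once Cst3, Cd68, Trdc, Trdv4, Cd79b, Epcam, Pecam1 and Cela1 were dropped, a choice made after it was seen that many cells held them. Any 2 libraries shared 3 to 18 cell barcodes. Counts of cells per guide had the lowest chi-square over degrees of freedom (1.56) between aPD-1 replicates 1 and 2, the smallest libraries (2535 and 2597 cells). This ratio grows with the number of cells, so it does not by itself rank pairs of unlike size. The titles of replicates 1 and 2 share a name, whereas replicate 3 and IgG have a name each, and no label names a batch. Whether replicates 1 and 2 came from separate mice is not stated, so p-values measure the spread between libraries.

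Transcripts of the 2 α chains of resident cells were scarce in aPD-1 replicates 1 and 2 and several times more abundant in replicate 3 and IgG. Itgae stood at 7.70, 8.24 and 41.2 CPM in aPD-1 replicates 1, 2 and 3 and at 26.8 CPM in IgG. Itga1 stood at 18.3, 15.6 and 52.9 CPM with aPD-1 and at 42.4 CPM with IgG. For both genes replicates 1 and 2 lay below the other 2 libraries, and the groups by treatment overlapped. Cd69 had the opposite order, with 208, 205 and 91.4 CPM with aPD-1 and 95.8 CPM with IgG. The mean of replicate 3 and IgG over the mean of replicates 1 and 2 was 4.27 for Itgae and 2.82 for Itga1. For Cd69 the mean of replicates 1 and 2 over that of the other libraries was 2.20. The same order held in each of 10 sets of cells described below, which divide the same libraries, for all 3 genes. Cells with a nontargeting guide gave 7.96, 10.5 and 40.1 CPM of Itgae with aPD-1 and 28.1 CPM with IgG, so the gap was also present in cells whose guide targets no gene. Of all genes tested, 65.7% had replicates 1 and 2 both above or both below the other libraries, and 8.41% did so with at least a 2-fold gap. Mice and day of experiment cannot be told apart within the gap. It was also present with every cell thinned to 4000 UMIs, where an Itgae UMI was found in 2.77% and 3.01% of cells in replicates 1 and 2 against 12.5% in replicate 3 and 7.84% in IgG. The median share of mitochondrial UMIs split the libraries in the same way, at 3.18% and 2.20% in replicates 1 and 2 against 1.38% in replicate 3 and 1.91% in IgG, and its part in the gap was not tested.

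**Figure D1:**
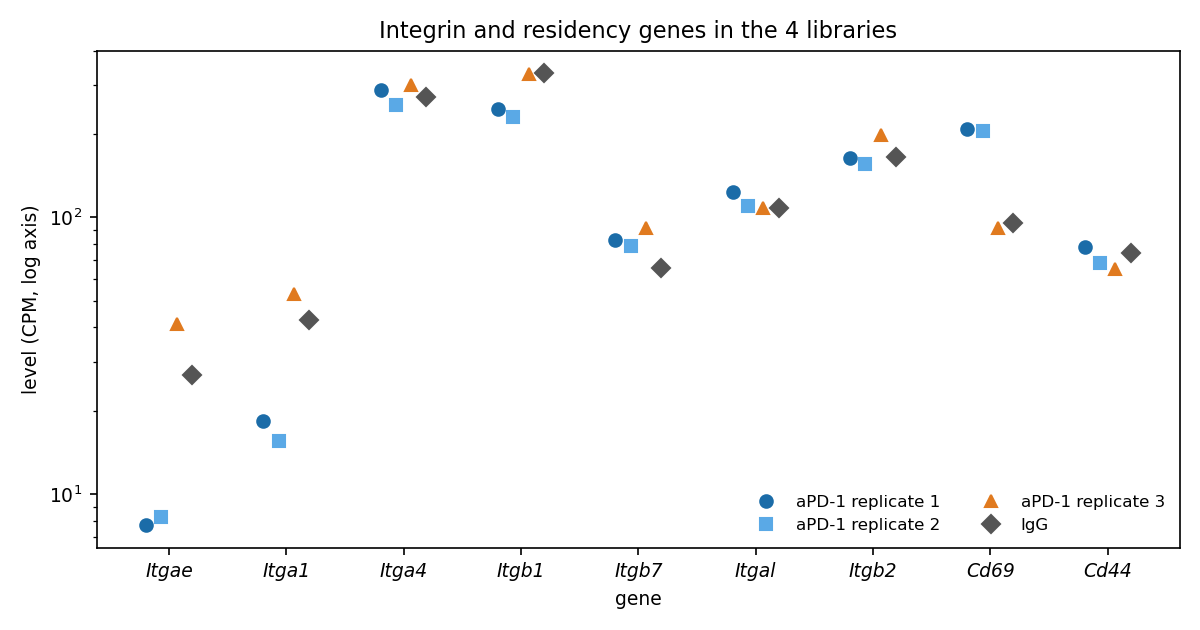
Level of each gene in the 4 libraries, in CPM on a log axis, with 1 point per library. Itgae and Itga1 lie lowest in aPD-1 replicates 1 and 2, at 7.70 to 8.24 and 15.6 to 18.3 CPM, while Cd69 lies highest there, at 205 and 208 CPM.

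The other integrin chains and Cd44 varied less across libraries. Itgb1, the partner of CD49a and α4, was at 246, 231 and 330 CPM with aPD-1 and at 332 CPM with IgG, so that it shared the order of Itga1 with a smaller gap. Itga4 was at 288, 256 and 301 CPM with aPD-1 and 273 CPM with IgG. Itgb7 was at 82.8, 78.9 and 91.5 CPM against 65.4 CPM, and its 3 aPD-1 libraries all lay above IgG. Itgal was at 123, 110 and 108 CPM against 108 CPM, and Itgb2 at 165, 156 and 198 CPM against 165 CPM. Cd44 was at 77.9, 68.3 and 64.9 CPM against 74.5 CPM. Replicate 3 and IgG had nearly equal levels of Itgal, with a ratio of 1.001, and of Itgb1, with a ratio of 0.996.

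To ask whether PD-1 blockade changed these genes, the 3 aPD-1 libraries were compared with IgG by edgeR's quasi-likelihood test on 1 sum per library. None of the 9 genes passed an adjusted p of 0.05, as was the case for all 13810 genes tested (0% called). The same test gave an unadjusted p under 0.05 for 1 of the 9, Itgb7, against 282 of all genes (2.04%), and DESeq2 called none of the 9 and 5 genes in all (0.0362%). Itgb7, the shared β chain of CD103 and α4, had a log2 fold change of 0.38 ± 0.14 (SE), with an adjusted p of 0.987. An exact permutation test of 3 libraries against 1 gave a two-sided p of 0.25 for Itgb7, the smallest this design allows. It was higher with aPD-1 in 3 of 3 libraries, as Itgal was, and Itgb1 was lower in 3 of 3. Of all genes tested, 46.0% had their 3 aPD-1 libraries all above or all below IgG. For Itgae the log2 fold change was -0.48 ± 0.96 and for Cd69 0.83 ± 0.50, with the aPD-1 libraries far apart for both.

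By cells per guide, IgG was nearer to replicate 3 than to replicates 1 and 2, at a chi-square over degrees of freedom of 3.05 against 6.10 and 6.27, and this pair has no replicates. Replicate 3 over IgG was 1.54 for Itgae, 1.40 for Itgb7, 1.25 for Itga1 and 1.20 for Itgb2. In each of 10 sets of cells, which divide the same 2 libraries, replicate 3 lay above IgG for these 4 genes. How many of all genes do so was not counted, so this restates the ratios and is no separate evidence. Cd44 had a ratio of 0.87 and lay above IgG in 1 of 10 sets. With a term for the 2 pairs of libraries in the fit, the value is again that of replicate 3 against IgG, and the only spread behind it is that between replicates 1 and 2, which may be technical. That fit gave a log2 fold change of 0.62 for Itgae and called Itgae and Itgb7, at a background of 2.05% of genes called, which compares these 2 libraries and not the treatments. Without replicate 3, 5 of the 9 genes passed, at a background of 24.9%, and Itgae then had a log2 fold change of -1.73. The direction for Itgae turned with the libraries used. In summed cells, fewer cells with a transcript and fewer transcripts per cell cannot be told apart.

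Per cell, with all cells thinned to 4000 UMIs, an Itgae UMI was found in 2.77%, 3.01% and 12.5% of cells with aPD-1 and in 7.84% with IgG (exact 95% intervals 2.17 to 3.49, 2.39 to 3.75, 11.7 to 13.3 and 7.31 to 8.40). Itga1 was found in 7.32%, 5.64% and 18.1% against 13.9% of cells. Cd69 was found in 50.6%, 48.6% and 27.3% against 27.7% of cells, and Itgb7 in 26.0%, 25.8% and 28.7% against 21.1%. The thinning left out 8, 8 and 144 shallow cells with aPD-1 and 1842 with IgG. The intervals cover counting error only. No cell type that lacks these genes was present in numbers, so the share that free RNA gives was not tested.

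To place the genes among the states of intratumoural T cells, cells were sorted into sets by 9 marker lists, none of which holds any of the 9 genes. A cell joined the list for which it ranked highest if it was in the top 10% of its library and depth bin, and otherwise formed a set high for no list, which held 39.8% to 43.2% of cells. Sets were named after their lists. Each set was summed per library and compared with the mean of the other sets, with the library as a block. Of 90 pairs of a gene and a set, 47 passed an adjusted p of 0.05, 22 of them higher and 25 lower, against 28.3% of pairs over all genes. Without the library as a block 14 passed (13.8% over all genes), all of them among the 47, and in nontargeting cells alone 19 passed (8.83%). With cells high for no list as the reference, 29 of the 43 calls in the other sets passed in the same direction, 11 no longer passed and 3 turned in sign. The sets are the ends of a score and not separate cell types, since 558 to 2553 cells per library passed for several lists.

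**Figure D2:**
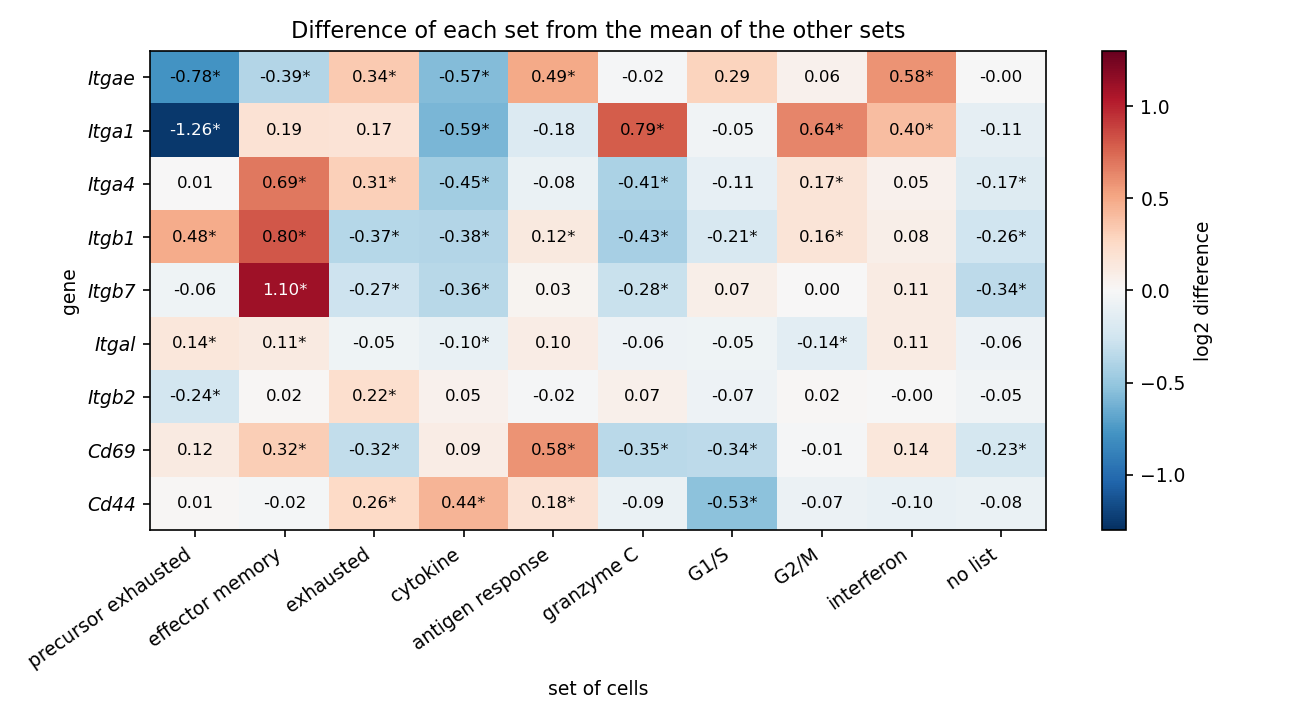
Fitted log2 difference of each set of cells from the mean of the other sets, for 9 genes (rows) and 10 sets (columns), over 4 libraries with the library as a block. An asterisk marks an adjusted p under 0.05; the effector memory column is highest for Itgb7 (1.10), Itgb1 (0.80) and Itga4 (0.69), and the precursor exhausted column lowest for Itga1 (-1.26) and Itgae (-0.78).

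The α4 chain and both of its partners were highest in the effector memory set, which was chosen by a list that includes Klf2, S1pr1, S1pr4, Klf3, Ly6c2 and Gzma. Itgb7 was at 202, 193 and 173 CPM in this set with aPD-1 and at 114 CPM with IgG, against 54.3 to 105 CPM in all other sets and libraries. Each library had its highest Itgb7 level there. The log2 difference from the other sets was 1.10 ± 0.06 (SE, n = 4 libraries), with an adjusted p of 6.56e-19 by edgeR. Itgb1 was at 417, 411 and 646 CPM with aPD-1 and 507 CPM with IgG, a log2 difference of 0.80 ± 0.04 with an adjusted p of 8.12e-21. Itga4 was at 496, 431 and 465 CPM against 389 CPM, a log2 difference of 0.69 ± 0.05 with an adjusted p of 4.03e-16. All 3 were above the mean of the other sets in 4 of 4 libraries. In this set 5 of the 9 genes passed higher and 1 lower, where 15.5% of all genes were called higher and 16.2% lower.

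The remaining calls in the effector memory set were smaller. Cd69 was at 267, 302 and 117 CPM with aPD-1 and 110 CPM with IgG, a log2 difference of 0.32 ± 0.06 that passed. Itgal passed with 0.11 ± 0.04, but not without replicate 2, replicate 3 or IgG (adjusted p from 0.0865 to 0.138 by edgeR). Itgae had the opposite sign, at 6.97, 3.79 and 31.5 CPM with aPD-1 and 21.6 CPM with IgG, below the mean of the other sets in 4 of 4 libraries. Its log2 difference was -0.39 ± 0.15 with an adjusted p of 0.0496 by edgeR, just past the threshold, and was not called without replicate 2, replicate 3 or IgG (0.0976 to 0.136). In nontargeting cells alone the value for Itgae was 0.24 and did not pass, whereas Itgb7, Itgb1 and Itga4 passed there too. Cd69 and Itgal in this set were not among the calls in nontargeting cells.

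Since Itga4, Itgb1 and Itgb7 rose together in a set chosen partly by Klf2, the 250 bases before their start sites were searched on both strands for CACCC, the core letters bound by Krüppel-like factors such as KLF2. The motif was chosen after the levels were seen. The sequences, from RefSeq on GRCm38.p6, are printed 5′ to 3′ on the strand of the gene, with each CACCC or GGGTG in capitals. They lie at chr2:79255176-79255425 on the plus strand for Itga4, chr8:128685404-128685653 on the plus strand for Itgb1 and chr15:102231936-102232185 on the minus strand for Itgb7.
Itga4: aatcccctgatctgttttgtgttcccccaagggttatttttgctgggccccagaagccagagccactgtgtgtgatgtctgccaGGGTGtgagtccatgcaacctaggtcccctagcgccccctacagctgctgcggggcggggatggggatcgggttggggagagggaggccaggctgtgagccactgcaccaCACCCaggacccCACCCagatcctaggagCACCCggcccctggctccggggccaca
Itgb1: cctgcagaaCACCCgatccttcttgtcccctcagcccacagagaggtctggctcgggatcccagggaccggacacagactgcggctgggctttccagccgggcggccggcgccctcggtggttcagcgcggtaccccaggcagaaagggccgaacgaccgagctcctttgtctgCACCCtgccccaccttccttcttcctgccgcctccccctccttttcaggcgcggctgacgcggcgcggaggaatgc
Itgb7: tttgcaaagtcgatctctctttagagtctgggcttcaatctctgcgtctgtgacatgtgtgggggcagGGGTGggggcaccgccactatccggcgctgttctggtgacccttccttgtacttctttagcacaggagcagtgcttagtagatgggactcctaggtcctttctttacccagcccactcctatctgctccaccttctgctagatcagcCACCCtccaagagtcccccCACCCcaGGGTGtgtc
The window of Itga4 held 4 matches, that of Itgb7 4 and that of Itgb1 2. The RefSeq start of Itgb7 lies inside the gene as GENCODE gives it, and the last match of its window falls there, so that 3 precede the GENCODE start. Of the other genes with an entry, Itga1 held 2 and Cd44 held 0, and Itgae, Itgal, Itgb2 and Cd69 had none to search. Over 32851 promoters of the same length, 52.0% held at least 1 match, 21.1% at least 2, 6.9% at least 3 and 2.10% at least 4. A match describes letters in a window and no binding was measured.

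The precursor exhausted set, chosen by Tcf7, Slamf6, Id3, Lef1, Cxcr5 and Xcl1, had the lowest levels of both resident-type α chains by the fit. Itga1 was at 13.9, 4.77 and 24.0 CPM there with aPD-1 and 15.6 CPM with IgG. The log2 difference was -1.26 ± 0.12 with an adjusted p of 2.17e-11 by edgeR. Itgae was at 0.97, 5.45 and 24.4 CPM with aPD-1 and 17.8 CPM with IgG, a log2 difference of -0.78 ± 0.16 that passed. Both were below the mean of the other sets in 4 of 4 libraries. Itgb1 went the other way, at 363, 341 and 455 CPM against 424 CPM, with 0.48 ± 0.04, so that the β chain of CD49a was high where its α chain was low. Itgb2 fell by 0.24 on the log2 scale and Itgal rose by 0.14, and the other 4 genes did not pass. The background was 13.8% of genes called higher and 14.3% lower.

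**Figure D3:**
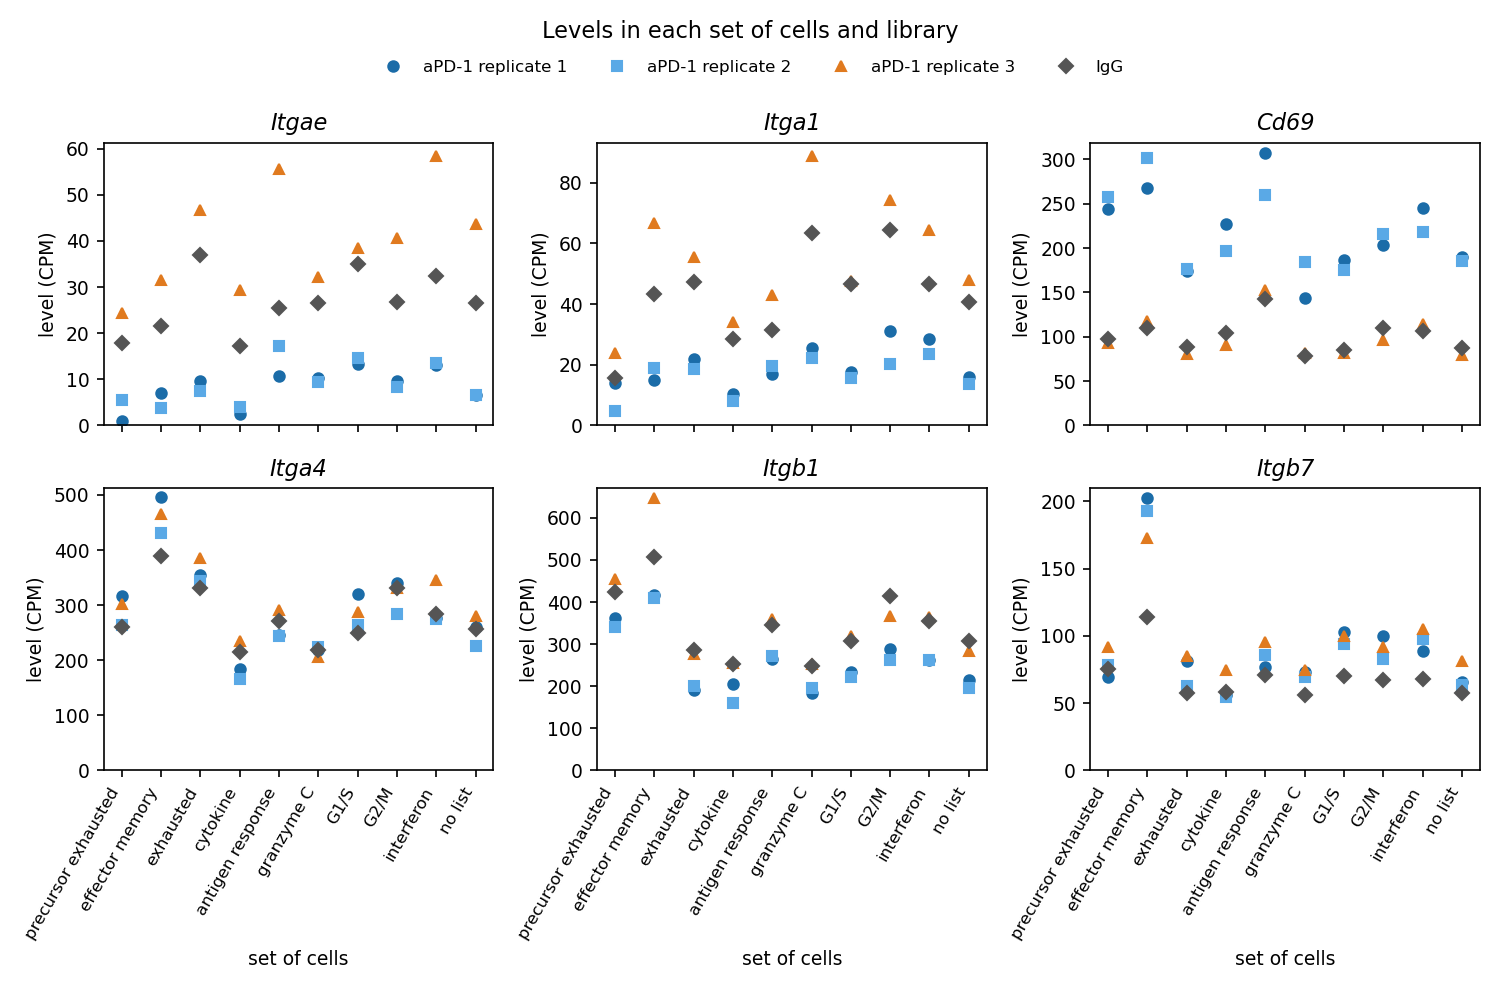
Levels of 6 genes in CPM (linear axes from 0) in each set of cells, with 1 point per library. Itga4, Itgb1 and Itgb7 peak in the effector memory set in all 4 libraries, and Itgae, Itga1 and Cd69 keep the gap between aPD-1 replicates 1 and 2 and the other libraries in every set.

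By the fit, CD49a transcripts were most abundant in the granzyme C set, followed by cells in G2/M. Within libraries the granzyme C set was highest in replicate 3 alone, since G2/M was highest in replicate 1 and IgG and the interferon set (23.6 CPM) in replicate 2. Itga1 was at 25.4, 22.3 and 88.9 CPM in the granzyme C set with aPD-1 and 63.6 CPM with IgG, with a log2 difference of 0.79 ± 0.09 and an adjusted p of 2.21e-09 by edgeR. In G2/M it was at 31.0, 20.3 and 74.4 CPM with aPD-1 and 64.4 CPM with IgG, a log2 difference of 0.64 ± 0.09 that passed. Itga4, Itgb1, Itgb7 and Cd69 fell by 0.41, 0.43, 0.28 and 0.35 on the log2 scale in the granzyme C set, where 8.04% of genes were called higher and 7.04% lower. The sign for Itgb7 turned in nontargeting cells (0.14) and against cells high for no list (0.0460), and its call was lost without replicate 3 (adjusted p of 0.0524 by edgeR). In G2/M, Itga4 and Itgb1 rose by 0.17 and 0.16 and Itgal fell by 0.14 on the log2 scale, where 20.7% were called higher and 22.0% lower. The granzyme C list had many tied scores, with 1742 of 2535 cells of replicate 1 within 0.1 of its limit, so membership there is less sharp.

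The exhausted set, chosen by Pdcd1, Havcr2, Lag3, Tigit, Entpd1 and Tox, had more of 2 α chains and less of their β chains. Itga4 was at 355, 344 and 385 CPM with aPD-1 and 331 CPM with IgG, above the mean of the other sets in 4 of 4 libraries by 0.31 ± 0.05 on the log2 scale. Itgae rose by 0.34 ± 0.13, in 3 of 4 libraries. Itgb1 and Itgb7, which pair with them, fell by 0.37 and 0.27 on the log2 scale, in 4 of 4 libraries each. Against cells high for no list, Itgb7 had the opposite sign (0.0588) and neither chain passed. The Itgae call was lost without replicate 1, without replicate 3 or without IgG (adjusted p from 0.0513 to 0.352 by edgeR). Itgb2 had its highest level by the fit here, at 206, 179 and 237 CPM against 188 CPM, a log2 difference of 0.22 ± 0.04. Cd44 rose by 0.26 and Cd69 fell by 0.32 on the log2 scale. All 7 of these passed, and 16.5% of all genes were called higher and 17.2% lower.

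By the fit, cells high for cytokine transcripts had the lowest Itga4 and Itgb7 of the sets, and lower levels of 4 further integrin chains than the other sets. In the cytokine set, Itga4 was at 184, 166 and 236 CPM with aPD-1 and 215 CPM with IgG, and its log2 difference of -0.45 ± 0.05 was the lowest of any set for this gene. Itga1, Itgae, Itgb1, Itgb7 and Itgal fell by 0.59, 0.57, 0.38, 0.36 and 0.10 on the log2 scale. Cd44 was highest here by the fit, at 104, 77.1 and 80.8 CPM against 97.2 CPM, with 0.44 ± 0.05 and an adjusted p of 6.75e-11 by edgeR. The count was 1 gene higher and 6 lower, in a contrast in which 24.1% of all genes were called higher and 23.8% lower.

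Cd69 followed the antigen response set, chosen by Nr4a1, Nr4a2, Nr4a3, Egr1, Egr2 and Egr3, early genes of receptor signalling. It was at 307, 259 and 153 CPM there with aPD-1 and 142 CPM with IgG, the highest set in 3 of 4 libraries. The log2 difference was 0.58 ± 0.06 with an adjusted p of 3.42e-11 by edgeR. Itgae rose by 0.49 ± 0.14, Cd44 by 0.18 ± 0.05 and Itgb1 by 0.12 ± 0.04, and none of the 9 was called lower, where 9.11% of genes were called higher and 5.12% lower. In nontargeting cells alone the signs of Cd44 (-0.0084) and Itgb1 (-0.0427) turned. Itgae lay above the other sets in 3 of 4 libraries, and its call was lost without replicate 2 or 3 (adjusted p of 0.0741 and 0.189 by edgeR). That of Itgb1 was lost without any 1 library (0.0553 to 0.255). The interferon set had Itgae at 13.001, 13.6 and 58.4 CPM with aPD-1 and 32.5 CPM with IgG. This was the highest Itgae level of any set by the fit, at 0.58 ± 0.13. Within libraries it was the highest in replicate 3 alone. G1/S was highest in replicate 1 (13.2 CPM), antigen response in replicate 2 (17.3 CPM) and exhausted in IgG (37.0 CPM). Itga1 also passed in the interferon set with 0.40 ± 0.09, and no other gene did, at a background of 5.60% higher and 4.46% lower. Without replicate 3 the Itgae call was lost (adjusted p of 0.0743 by edgeR).

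Cells in G1/S had the lowest Cd44 by the fit, at 60.5, 51.0 and 47.4 CPM with aPD-1 and 59.4 CPM with IgG, with a log2 difference of -0.53 ± 0.05 and an adjusted p of 4.20e-12 by edgeR. Cd69 and Itgb1 also fell, by 0.34 and 0.21 on the log2 scale, though Itgb1 had 0.0470 against cells high for no list. None of the 9 was called higher, where 19.9% were called higher and 21.8% lower. Cells high for no list had lower Itgb7, Itgb1, Cd69 and Itga4, by 0.34, 0.26, 0.23 and 0.17 on the log2 scale, at 8.37% called higher and 9.32% lower.

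The genes differed in how far they ranged over the sets. From the highest to the lowest set, the fitted level changed 3.58-fold for Itga1, 2.49-fold for Itgb7, 2.34-fold for Itgae, 2.16-fold for Itgb1, 2.03-fold for Itga4, 1.84-fold for Cd44 and 1.79-fold for Cd69. It changed 1.33-fold for Itgb2 and 1.19-fold for Itgal, the pair that forms LFA-1. In each case the highest set lay above the lowest in 4 of 4 libraries. Neighbouring sets in these orders mostly could not be separated, since of 9 neighbouring pairs per gene only 1 to 4 had the same order in every library. Effector memory lay above the next set in 4 of 4 libraries for Itga4, Itgb1 and Itgb7. Other small calls were also lost with a library left out. By edgeR the adjusted p of Itgal was then 0.0721 in precursor exhausted (without replicate 1), 0.0894 in G2/M (without IgG) and 0.0854 to 0.261 in cytokine (without any 1 library), and that of Itga4 in cells high for no list was 0.0648 (without replicate 2).

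Other genes of adhesion and residence were grouped in lists, and they are described in full for some of the sets. Of 13 residency genes, 5 rose and 4 fell in the cytokine set (24.1% and 23.8% over all genes). In granzyme C 6 rose and 2 fell (8.04% and 7.04%), and in G1/S 1 rose and 6 fell (19.9% and 21.8%). Of 14 genes of integrin activation, 2 rose and 7 fell in the cytokine set, and 4 rose and 5 fell in granzyme C. In the effector memory set, where 15.5% of all genes were called higher and 16.2% lower, 9 of 14 tested genes of integrin activation rose and 1 fell, with a list median of 0.23 on the log2 scale against -0.0059 over all genes. The largest rise was that of Rasgrp2, which activates the integrin switch Rap1, at 2.23 ± 0.10. Of 6 tested other integrin chains, 4 rose there, led by Itgam, the α chain of Mac-1, at 1.93 ± 0.23, and Itgav fell by 0.68. Of 13 genes of the residency programme, 7 fell, among them Rgs2 by 0.57, and 1 rose, with a median of -0.21. Among genes of egress and circulation, 6 of 8 rose, but 4 of these 8 were used to choose sets, and Klrg1, which was not, rose by 2.25 ± 0.14. Of 11 tested genes of the TGF-β response, 2 rose and 3 fell, with a median of -0.0025. Among those that fell was Pmepa1, a target of TGF-β signalling, by 0.54.

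In the precursor exhausted set, where 13.8% of all genes were called higher and 14.3% lower, 7 of 13 residency genes fell, led by Prdm1 (BLIMP-1), Cxcr6 and Rgs1, by 1.16, 0.94 and 0.81 on the log2 scale, and 2 rose. The list median was -0.39 against 0.0043 over all genes. Ccr7, the receptor that leads T cells to lymph nodes, rose by 2.54 ± 0.15, and Cd9, a tetraspanin partner of integrins, by 1.04 ± 0.08. The exhausted set was the reverse for residency genes, since 9 of 13 rose and 1 fell (16.5% and 17.2% over all genes), with a median of 0.34, led by Prdm1 and Cxcr6 at 0.78 each. In the interferon set 6 of 13 rose and none was called lower (5.60% and 4.46% over all genes), led by P2rx7 at 0.82 ± 0.15. In the granzyme C set Itgb3, the β chain of the vitronectin receptor, rose by 1.45 ± 0.13, the E-cadherin gene Cdh1 by 0.94 ± 0.26 and Il7r by 1.20 ± 0.10. S1pr1 fell there by 1.26 and Cx3cr1 by 0.51. Of 6 other integrin chains 2 rose and 1 fell, and of 7 ligands and partners 2 rose and 2 fell. Among 8 egress genes 2 rose and 2 fell (8.04% and 7.04% over all genes). Smad3, a transducer of TGF-β signals, rose by 1.44 ± 0.15 in the cytokine set and by 0.58 ± 0.17 in the antigen response set and fell by 0.91 in the granzyme C set. Between treatments none of 71 tested genes of the 6 lists was called.

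The genes were next compared cell by cell, to see whether partner chains were found in the same cells. With all cells thinned to 4000 UMIs, 21 of 36 pairs had a log2 odds ratio above 0 in 4 of 4 libraries and 1 had one below 0 in all 4, with a median over pairs of 0.17. By the mean log2 odds ratio over libraries, Itgae and Itga1 stood highest, at 1.22, although few cells held both. Among cells with an Itgae UMI, 24.3%, 8.97% and 28.3% also had an Itga1 UMI with aPD-1 and 21.9% with IgG. Among cells without one, the shares were 6.84%, 5.54% and 16.7% against 13.2%. The log2 odds ratios were 2.15, 0.84 and 0.98 with aPD-1 and 0.89 with IgG, and those of replicates 1 and 2 rest on 17 and 7 cells with both. In replicate 2 the pair of Itgae and Itgb7 lay above it.

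Partner chains lay among the other pairs. Itgae and Itgb7, the chains of CD103/β7, had log2 odds ratios of 0.79, 1.27 and 0.46 with aPD-1 and 0.29 with IgG. Itga4 and Itgb7 had 0.56, 0.76 and 0.29 against 0.43, and Itga4 and Itgb1 had 0.28, 0.49 and 0.54 against 0.44. Itga1 and Itgb1 had 0.38, 0.31 and 0.33 against 0.27. The chains of LFA-1, Itgal and Itgb2, had 0.17, -0.09 and 0.09 against 0.11. Among chains that form no integrin together, the mean was 0.44 for Itga1 with Itga4, 0.41 for Itgae with Itga4, 0.39 for Itga1 with Itgb7 and 0.37 for Itgb1 with Itgb7, all above the 0.33 of the partners Itga1 and Itgb1. Itgae and Itgb1, which form no integrin together, were the pair below 0 in all libraries, from -0.33 to -0.05. With cells thinned to 2000 UMIs this pair ranged from -0.76 to 0.03 and lay above 0 in 2 of 4 libraries, and 18 of 36 pairs lay above 0 in all 4. Itgae and Cd69, both used to define resident cells, had 0.53 in replicate 3 and 0.13 in IgG but -0.63 and 0.61 in replicates 1 and 2. Cells of 1 library share depth, free RNA and base composition, so these values are a description, and the highest Pearson correlation of any pair in any library was 0.15.

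**Figure D4:**
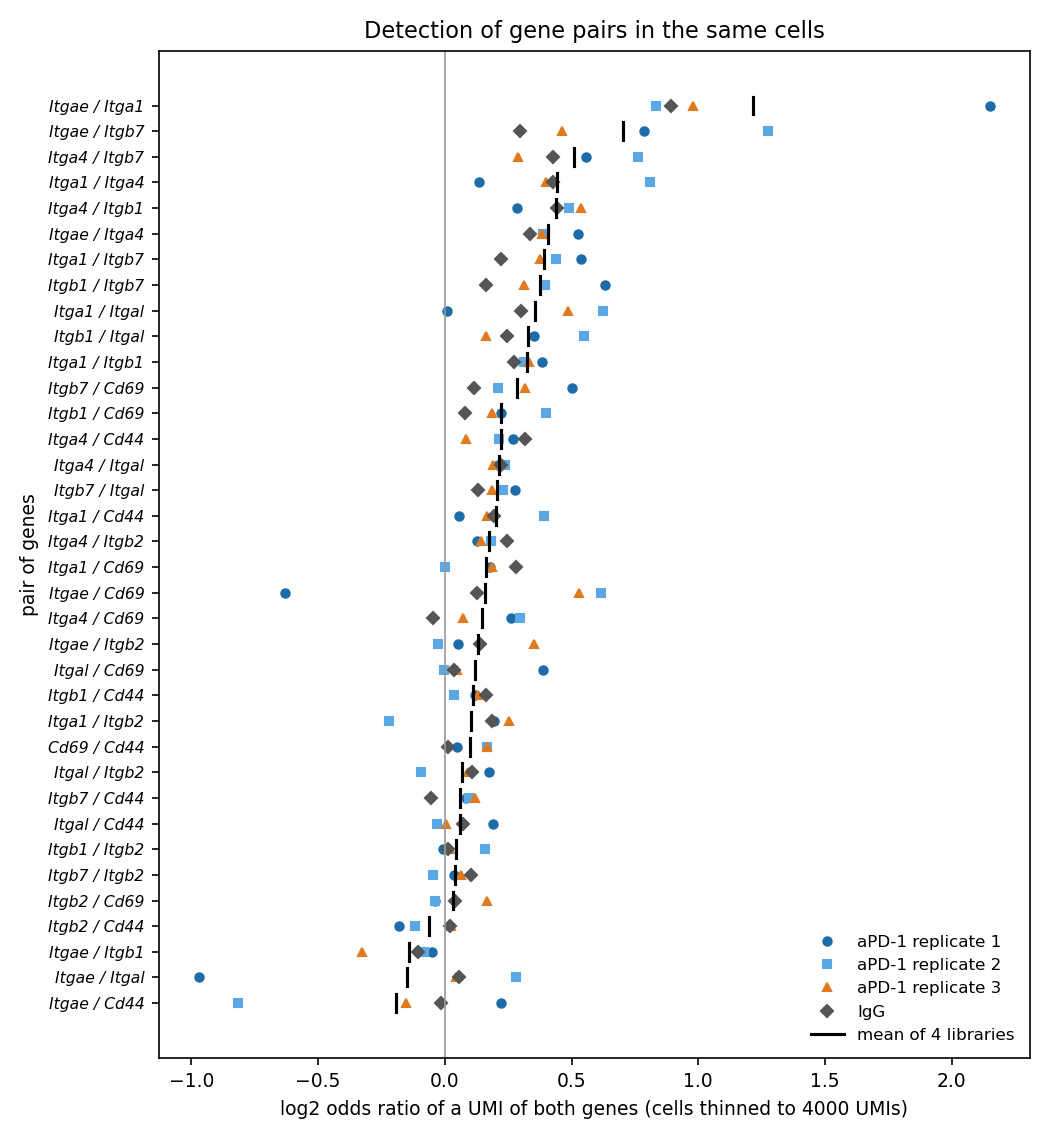
Log2 odds ratio of finding a UMI of both genes in the same cell, for 36 pairs of genes, after thinning to 4000 UMIs. Points are libraries and bars the mean of 4 libraries; Itgae with Itga1 has the highest mean, with 0.84 to 2.15, and Itgae with Itgb1 lies below 0 in each library.

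Genes outside the list were ranked by their correlation with each gene over cells, as the mean of 4 libraries over 3832 genes found in at least 10% of cells. Itgae was most like Cd7, Ccl5 and Cd52, with mean correlations of 0.18, 0.14 and 0.11. Itgb7 was most like Crip1, Lgals1 and S100a6 (0.22, 0.20 and 0.20), and Itgb1 like S100a10, Cd52 and Ly6e (0.19, 0.18 and 0.16). Cd69 was most like Klf6, Egr1 and Junb (0.11, 0.10 and 0.10), which are early response genes. Itga1 came nearest to Cd52, Fgl2 and Tmsb4x and Itga4 to Malat1, Ccl5 and Ptprc. For Itgal, Itgb2 and Cd44 the highest mean was 0.10 or less, reached by Cd52, Tmsb4x and Malat1. These correlations are weak and, in sparse counts, serve only to name neighbours.

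Because the cells carried guides, each gene was also compared between cells of 82 targets and nontargeting cells in the 3 aPD-1 libraries. None of 738 pairs of a gene and a target passed an adjusted p of 0.05 by edgeR, where 0.0544% of all pairs passed. At an unadjusted p under 0.05 there were 33 pairs, or 4.47%, against 3.90% over all genes, and DESeq2 called 0 pairs (0.0208% over all genes). The largest values were those of rare targets, from -2.02 for Itga1 with Dhodh to 1.76 for Itgae with Pigp. The latter rests on 4, 7 and 14 cells, with 1, 0 and 28 Itgae UMIs, and only the last sum had the 10 cells needed to enter the fit. Dhodh had 3, 3 and 11 cells, so its value likewise rests on replicate 3 alone. The median standard error was 0.20 on the log2 scale over all pairs and 0.44 for Itgae, and values up to 3.01 standard errors from 0 did not pass.

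**Figure D5:**
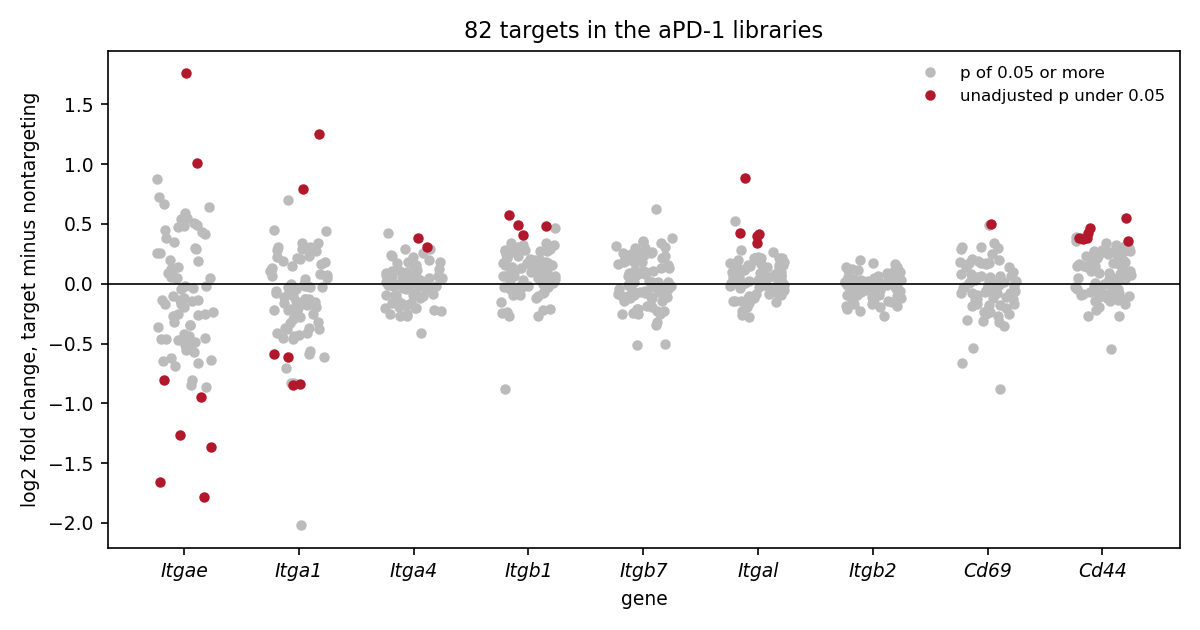
Log2 fold change of each gene in cells of 82 targets against nontargeting cells in the aPD-1 libraries, 1 point per target. Red points have an unadjusted p under 0.05 (33 of 738); none passed after adjustment, and Itgae and Itga1 spread most widely.

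Elovl1 and Pik3cd, targets named by rule, were also examined. Elovl1 codes for an enzyme that lengthens very long-chain fatty acids, and its cells had 20.2, 13.9 and 42.9 CPM of Itgae against 7.96, 10.5 and 40.1 CPM in nontargeting cells. In replicate 1, a single cell held 47.4% of the 19 Itgae UMIs of Elovl1 cells. The IgG library, not used in the fit, went the other way, with 18.3 CPM in Elovl1 cells (14 UMIs) against 28.1 CPM in nontargeting cells. On the log2 scale Itgae differed by 0.45 ± 0.37 (adjusted p of 1 by edgeR), and the Itgal value was -0.23 ± 0.14, also with an adjusted p of 1. Pik3cd codes for the δ catalytic subunit of PI3-kinase and had 1 guide, so a guide's own effect cannot be told apart from that of the target. Itga4 was at 351, 237 and 429 CPM in its cells against 284, 250 and 298 CPM in nontargeting cells, a log2 fold change of 0.31 ± 0.15 with an adjusted p of 0.67. In IgG, which the fit did not use, Itga4 was at 398 CPM against 281 CPM. The effector memory set, where Itga4 was highest, held 4%, 14.3% and 15.7% of the 25, 28 and 210 Pik3cd cells with aPD-1. With IgG it held 11.9% of 236 cells. Among nontargeting cells it held 4.05%, 4.57% and 6.602% with aPD-1 and 6.09% with IgG. Replicate 1 thus had no higher share, and the part of the higher shares elsewhere in the Itga4 values was not tested. Itgb2 had -0.23 ± 0.13 with an adjusted p of 0.76. The targets' own transcripts were not uniformly lower, with 28.8, 45.1 and 41.8 CPM of Elovl1 in its cells against 45.4, 40.3 and 47.7 CPM, and 62.3, 31.8 and 67.0 CPM of Pik3cd against 51.2, 44.3 and 58.3 CPM.

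In GENCODE M21 on GRCm38, Itgae lies at chr11:73090583-73147446 on the plus strand, Itga1 at chr13:114953096-115101964 on the minus strand and Itgb7 at chr15:102215995-102231944 on the minus strand. Exons of Itga4 overlap the gene Cerkl on the other strand, and introns of Itga1 hold Pelo on the same strand, which is counted apart. Gm49395, a protein-coding gene on the same strand, overlaps Itga1 over 66649 bases, exons included, and is not among the genes counted. Whether counting used the strand is not stated, so reads from the shared stretch of Itga4 and Cerkl cannot be told apart.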

How the data were processed

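The deposited matrices held raw UMI counts for each gene in each barcode, for which the authors ran Cell Ranger 3.1.0 on mm10 per the labels. The guide calls per cell, with their UMI counts, were also deposited. Which annotation release they used is not stated. Coordinates are those of GENCODE M21 on GRCm38, the build of mm10. Groups came from the treatment label. Replicate numbers were given in sample order and pair nothing.

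Cells were retained with exactly 1 called guide, a log10 UMI count at most 3 median absolute deviations from that of its library and at most 10% mitochondrial UMIs. No doublet caller was run beyond the single-guide filter. Counts were summed per library, per set and library, or per target and library with at least 10 cells, and tested with edgeR 4.0.16 (quasi-likelihood, filterByExpr, TMM, Benjamini-Hochberg adjustment within each contrast at 0.05) in R 4.3.3. Library was a block for sets and targets, and for targets the dispersion trend was estimated on 1 gene in 8. DESeq2 1.42.0 was an alternative. A cell score was the mean z-score of log counts per 10000 over a list, ranked within 10 depth bins. Coexpression used cells thinned to 4000 UMIs, with exact Clopper-Pearson 95% intervals for shares. Other steps used Python 3.11.15 with pandas 2.3.3, numpy 2.4.6, matplotlib 3.10.9 and scipy 1.17.1, and the fits were tested on simulated data. Errors after log2 values are standard errors.

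Named genes were the 9 genes, their highest and lowest sets, up to 3 genes of the pathway lists per contrast and direction with the largest change past the threshold, the 3 genes most correlated with each gene, called pairs of gene and target, and Elovl1 and Pik3cd. Further targets were named after their values were seen. A gene of the effector memory list is not reported here. The genes, lists and tests were chosen with earlier results of these data known.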

Additional observations from a re-analysis of the deposited data

Results flagged for a closer look

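Cd44 was set apart because its aPD-1 libraries lay on opposite sides of IgG in 2 sets of cells. In the granzyme C set it stood at 75.8, 72.2 and 62.2 CPM with aPD-1 and 61.3 CPM with IgG, a log2 ratio of the mean of 0.19. In the precursor exhausted set it stood at 73.9, 67.5 and 66.6 CPM with aPD-1 and 81.4 CPM with IgG, a log2 ratio of -0.23. The difference between the sets was not tested, and replicate 3 exceeded IgG in the first by 62.2 against 61.3 CPM. Over summed libraries 46.0% of all genes had their aPD-1 libraries all above or all below IgG. Of the 9 genes, Cd44 alone had sets on both sides, 1 above and 1 below. How many of all genes had sets on both sides was not counted, so the split is not shown to be unusual. For other genes the aPD-1 libraries all lay above IgG in up to 8 of 10 sets (Itgb7) or all below in up to 3 (Itgb1).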

How the results depend on the processing

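Treatment calls depended on the libraries: 2 of the 9 genes passed with the term for pairs of libraries (replicates 1 and 2, replicate 3 and IgG; no label names a batch) and 5 without replicate 3, a range of 0 to 5 over leaving out each library. Signs turned with that term for Itgae (0.62), Itga1 (0.32), Cd69 (-0.0694) and Itgal (-0.0014), without replicate 3 for Itgb2 (-0.0231, against 0.134 without replicate 2), in nontargeting cells for Itga4 (-0.00065) and after thinning for Cd44 (0.00031). Of 47 set calls, 14 remained with no replicate block. In nontargeting cells alone 19 pairs passed, and leaving out a library gave 40 to 45. Signs turned in nontargeting cells for Itgae in effector memory (0.24), Itgb7 in granzyme C (0.14), and Cd44 (-0.0084) and Itgb1 (-0.0427) in antigen response. Against cells high for no list they turned for Itgb7 in exhausted (0.0588) and granzyme C (0.0460) and Itgb1 in G1/S (0.0470). Among targets 0 pairs passed under every alternative run, and 17 of 27 correlated genes remained without thinning. The causes were not tested. Depth limits Itgae most, with 3 UMIs in the smallest set sum.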
